A study of Arabidopsis thaliana with 6 samples.

Results

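The genes described here are 10 loci of *Arabidopsis thaliana* that make chlorophyll or switch on its synthesis, among 33602 loci in the deposited count table. They were taken by locus code and comprise *HEMA1*, *CHLH*, *GUN4*, *CRD1*, *PORA*, *PORB*, *PORC*, *CAO*, *GLK1* and *GLK2*. RNA sequencing was done on the base of inflorescence stems labelled *smxl4 smxl5*, which the study describes as phloem-defective, and of stems labelled wild type. There were 3 libraries of *smxl4 smxl5* and 3 of wild type, and RNA for a library came from 3 fragments, 1 cm long, of stems 15 to 20 cm tall. Shoots of both genotypes had been grafted onto wild-type roots 5 days into growth, so every plant carried a graft union and the genotypes differed above it. All plants spent 6 days on filter paper, 7 days recovering on plates and 3 days on soil in short days of 8 h light. They were moved to long days of 16 h light after 21 days, and the temperature was 22 °C. The labels give neither the mutant alleles nor the accession of the plants.

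Chlorophyll is built in plastids from glutamate along the tetrapyrrole pathway, which it shares with heme up to protoporphyrin IX. Magnesium chelatase commits protoporphyrin to the chlorophyll branch, and in flowering plants the reduction of protochlorophyllide needs light. GOLDEN2-LIKE (GLK) transcription factors activate many of these genes together with those of the light-harvesting antenna, and in *Arabidopsis* the pair of GLK genes is largely redundant in leaves. The outer tissues of the inflorescence stem are green and photosynthetic.

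Library totals ran from 21364628 to 49929595 counts. Levels are given as CPM, the read count scaled to library size with TMM factors, and changes as log2 fold changes of *smxl4 smxl5* over wild type. *SMXL4* had 13.3 ± 2.07 CPM in *smxl4 smxl5* and 11.1 ± 0.982 CPM in wild type, and *SMXL5* had 104.5 ± 19.5 CPM in *smxl4 smxl5* and 102.9 ± 7.72 CPM in wild type (SD, n = 3 each). Neither was lower, so read counts give no check of the mutant label. Markers of the tissues of a stem were present in every library. The summed level of 7 xylem markers ran from 2550 to 3158 CPM in *smxl4 smxl5* and from 4092 to 5087 CPM in wild type, and that of 8 phloem markers from 332 to 371 CPM in *smxl4 smxl5* and from 647 to 698 CPM in wild type. That of 10 genes for stroma proteins of green tissue ran from 2696 to 3454 CPM in *smxl4 smxl5* and from 5381 to 5853 CPM in wild type. Of 6 guard cell markers, none of which was at 0 over the 6 libraries, the sum ran from 20.0 to 22.9 CPM in *smxl4 smxl5* and from 27.9 to 31.8 CPM in wild type, a sum made up mostly of *FAMA*, which rose, and *KAT1*, which fell.

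In the *smxl4 smxl5* stem base, 6 of the 10 genes fell and 0 rose, while *PORB*, *GLK1*, *PORA* and *GLK2* did not pass the threshold. The genes that fell were *HEMA1*, *CHLH*, *GUN4*, *CRD1*, *PORC* and *CAO*, which span the pathway from its first committed step to chlorophyll *b*. They were at between 57.3% (*PORC*) and 80.8% (*HEMA1*) of their wild-type level. A call means an adjusted p under 0.05 in edgeR's quasi-likelihood test, where the Benjamini-Hochberg method covered all 20296 genes tested. All 10 genes passed the filter on low counts. Among all genes tested 13.7% were called lower and 11.2% higher. The median log2 fold change of the 10 genes was -0.46, against 0.02 over all genes tested. The 10 genes were chosen with earlier results of these data known, so these comparisons are descriptions and not a test of the list. The same 6 genes had groups without overlap, all lower in *smxl4 smxl5*, where 22.0% of all genes tested did. Another 23.3% of all genes were apart and higher, which makes 45.3% in either direction. The count of lower calls was 3 once replicate 1 of either genotype was left out, and 1 (*GUN4*) once replicate 2 of wild type was. Fewer cells of a green cell type and less RNA per cell cannot be told apart in these bulk samples.

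**Figure D1:**
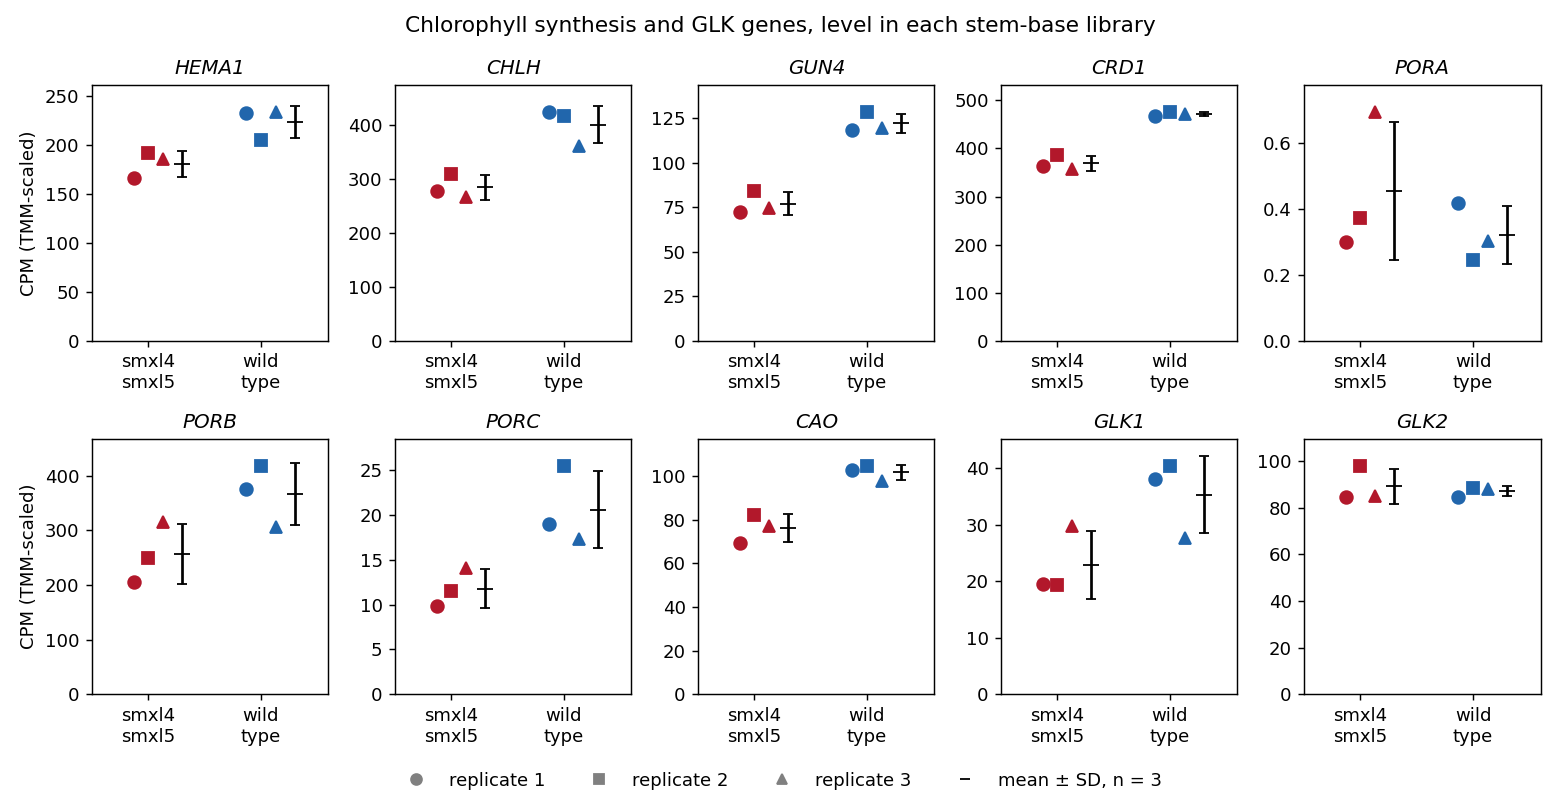
Level of each of the 10 genes in CPM (linear axes from 0), with *smxl4 smxl5* (red) left of wild type (blue), a marker shape per replicate and the mean ± SD (n = 3) beside the points. The groups stand apart for *HEMA1*, *CHLH*, *GUN4*, *CRD1*, *PORC* and *CAO*, and meet for *PORA*, *PORB*, *GLK1* and *GLK2*.

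The upstream sequences of the 10 genes were searched for 4 motifs on both strands, from 250 bases before to 50 bases after the annotated gene start. The G-box CACGTG, bound by bZIP and bHLH factors of light signalling, occurred in 2 of the 10 genes (*CRD1* and *CAO*), and in 7.68% of 27443 protein-coding genes. AGATTCT, a motif of GARP factors, occurred in 3 of the 10 (*HEMA1*, *CHLH* and *PORC*) and in 7.59% of all. CCAATC, reported near genes that respond to GLK factors, occurred in 4 (*CHLH*, *GUN4*, *PORB* and *PORC*) and in 12.3%. The motif of zinc-finger regulators such as *GNC*, spelled GATAAG, occurred in 4 (*GUN4*, *PORA*, *CAO* and *GLK1*) and in 14.6%. None of the 4 was found for *GLK2*. These matches do not overlap each other. A match is a description of letters and not a site.

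The 150 bases before the gene start are shown for the 5 genes that fell and hold a match there, from the RefSeq TAIR10.1 genome, 5′ to 3′ on the strand of the gene, with matches in capitals. In *CRD1* and *CAO* a G-box begins 52 bases before the start, and *CAO* holds a second at 32 bases. The GARP motif begins 138 bases before the start in *HEMA1* and, on the other strand, 101 bases before it in *CHLH*, and CCAATC begins 13 bases before the start in *GUN4*.
CRD1, chr3:21076355-21076504, plus strand: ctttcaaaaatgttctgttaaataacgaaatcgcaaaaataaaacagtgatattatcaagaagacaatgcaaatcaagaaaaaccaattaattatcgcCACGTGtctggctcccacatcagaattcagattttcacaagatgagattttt
CAO, chr1:16851272-16851421, minus strand: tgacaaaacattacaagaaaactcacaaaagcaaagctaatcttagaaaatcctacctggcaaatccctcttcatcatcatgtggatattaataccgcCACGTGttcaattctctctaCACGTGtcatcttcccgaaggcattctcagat
HEMA1, chr1:21626403-21626552, minus strand: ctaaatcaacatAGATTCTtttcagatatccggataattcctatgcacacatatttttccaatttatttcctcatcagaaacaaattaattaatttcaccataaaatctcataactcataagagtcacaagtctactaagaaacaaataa
CHLH, chr5:4392430-4392579, minus strand: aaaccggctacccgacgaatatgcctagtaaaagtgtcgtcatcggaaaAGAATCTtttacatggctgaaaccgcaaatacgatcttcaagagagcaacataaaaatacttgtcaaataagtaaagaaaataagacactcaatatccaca
GUN4, chr3:21949797-21949946, minus strand: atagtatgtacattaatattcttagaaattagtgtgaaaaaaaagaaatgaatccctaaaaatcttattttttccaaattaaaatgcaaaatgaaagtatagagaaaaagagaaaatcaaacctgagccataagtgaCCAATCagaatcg

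*GLK1* (AT2G20570; TAIR10.1 chromosome 2, 8855302 to 8857758, plus strand, 6 exons) encodes a GARP-family activator of chloroplast genes. It had 19.5, 19.3 and 29.8 CPM in *smxl4 smxl5* replicates 1, 2 and 3, against 38.03, 40.4 and 27.6 CPM in wild type replicates 1, 2 and 3. *smxl4 smxl5* replicate 3 lay above wild type replicate 3, so the groups overlapped. It differed by a log2 fold change of -0.62 ± 0.22 (SE) and did not pass (edgeR adjusted p = 0.0834). The call turned on single libraries, since the value was -0.86 without *smxl4 smxl5* replicate 3 (edgeR adjusted p = 0.0134) and -0.78 without wild type replicate 3 (edgeR adjusted p = 0.0459). DESeq2 called it lower, with an adjusted p of 0.0140.

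*GLK2* (AT5G44190; chromosome 5, 17798262 to 17800926, plus strand, 4 exons) encodes the paralogous activator. It had 84.4, 97.9 and 85.0 CPM in *smxl4 smxl5*, against 84.7, 88.4 and 88.2 CPM in wild type. All 3 wild-type values lay within the range of the *smxl4 smxl5* values. The log2 fold change was 0.03 ± 0.08 (edgeR adjusted p = 0.798), and its sign turned, at -0.05, without *smxl4 smxl5* replicate 2. With all libraries *GLK2* was at 102% of its wild-type level.

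Whether the pair kept its proportion was asked from the ratio of their counts within a library. The log2 ratio of *GLK1* to *GLK2* averaged -1.99 ± 0.43 in *smxl4 smxl5* and -1.32 ± 0.31 in wild type (SD, n = 3 each). The difference was -0.67, with an overlap of the groups and p = 0.2 in a two-sided exact permutation test, where the smallest p that 3 against 3 libraries allow is 0.1. The difference in response between *GLK1* and *GLK2* was therefore not shown. Their longest annotated transcripts align over 202 bases at 78.7% identity.

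The 3 genes with a profile closest to *GLK1* over the 6 libraries were AT1G29670, *sks17* and AT1G51805. Closeness was the root mean square difference of log2(CPM + 0.5) deviations from each gene's own mean, among 12788 others that averaged 10 CPM or more. It was 0.076, 0.078 and 0.078, against a median of 0.43 over those genes. *sks17* (AT5G66920) had 68.5, 71.2 and 99.5 CPM in *smxl4 smxl5*, against 126.7, 125.4 and 99.2 CPM in wild type. As *sks17* was picked for its closeness to *GLK1* over these same 6 libraries, the likeness of these values follows from the choice. The genes closest to *GLK2* were *EMB3143*, *PDX1.1* and *APEM9*, each at 0.020, where the median was 0.16. *EMB3143* (AT5G58250), annotated as a YCF54 protein, is itself on the list of other genes of the magnesium branch. It and *GLK2* changed little between the genotypes (log2 fold changes of 0.04 and 0.03), and closeness in this ranking does not show a link.

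The first committed step of the pathway is the reduction of glutamyl-tRNA. *HEMA1* (AT1G58290; chromosome 1, 21623700 to 21626402, minus strand, 3 exons) encodes the glutamyl-tRNA reductase of green tissue. It had 166, 192 and 185 CPM in *smxl4 smxl5*, against 233, 205 and 233 CPM in wild type. Every *smxl4 smxl5* library was below every wild-type library, with wild type replicate 2 the closest. The log2 fold change was -0.31 ± 0.09 (edgeR adjusted p = 0.0450). This call was at the threshold and was lost whichever library was left out, at edgeR adjusted p from 0.0555 to 0.143 and log2 fold changes from -0.37 to -0.25. It was also lost with libraries scaled by total counts (edgeR adjusted p = 0.0508). Its paralogue *HEMA2* had a log2 fold change of -0.11 ± 0.13 and was not called.

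Magnesium insertion is made by a chelatase of H, I and D subunits. *CHLH* (AT5G13630, annotated as *GUN5*; chromosome 5, 4387307 to 4392429, minus strand, 5 exons) encodes the porphyrin-binding H subunit. It had 277, 308 and 265 CPM in *smxl4 smxl5*, against 423, 416 and 361 CPM in wild type, which amounts to -0.50 ± 0.10 on the log2 scale (edgeR adjusted p = 0.0124). The groups were apart, and the call was lost without wild type replicate 2 (edgeR adjusted p = 0.0558).

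*GUN4* (AT3G59400; chromosome 3, 21948501 to 21949796, minus strand, a single exon) encodes a porphyrin-binding protein that stimulates the chelatase. It had 72.3, 84.2 and 74.9 CPM in *smxl4 smxl5*, against 118, 128 and 120 CPM in wild type. This was the lowest adjusted p of the 10 genes, with a change of -0.66 ± 0.08 on the log2 scale (edgeR adjusted p = 0.00346), and the call held whichever library was left out. Of its 1296 exon bases, 946 are shared with exons of *GCN2* on the opposite strand. The library kit keeps the strand, but the strand setting of the counting is not given, so reads there cannot be assigned with certainty. *GCN2* averaged 31.4 CPM in *smxl4 smxl5* and 27.6 CPM in wild type (log2 fold change 0.19, edgeR adjusted p = 0.249).

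*CRD1* (AT3G56940; chromosome 3, 21076505 to 21078443, plus strand, 5 exons) encodes a subunit of the cyclase that closes the fifth ring. It had 363, 386 and 358 CPM in *smxl4 smxl5*, against 467, 475 and 472 CPM in wild type. The wild-type libraries were tightly grouped and all above the *smxl4 smxl5* libraries. *CRD1* was lower by a log2 difference of -0.35 ± 0.07 (edgeR adjusted p = 0.0148). Leaving out replicate 1 of *smxl4 smxl5*, replicate 1 of wild type or replicate 2 of wild type lost the call, at edgeR adjusted p of 0.0555, 0.0506 and 0.0674. Its exons share 147 bases with *SIP2;1* on the opposite strand, which averaged 60.1 CPM in *smxl4 smxl5* and 58.4 CPM in wild type (edgeR adjusted p = 0.769).

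The 3 protochlorophyllide oxidoreductases reduce protochlorophyllide in the light. *PORB* (AT4G27440; chromosome 4, 13725546 to 13727440, plus strand, 4 exons), the form found in seedlings and in mature green tissue, had 206, 249 and 315 CPM in *smxl4 smxl5*, against 375, 418 and 306 CPM in wild type. As for *GLK1*, *smxl4 smxl5* replicate 3 lay above wild type replicate 3. With all libraries the change of -0.51 ± 0.18 (log2) did not pass (edgeR adjusted p = 0.0713). Without *smxl4 smxl5* replicate 3 it was -0.69 and passed (edgeR adjusted p = 0.0178), and DESeq2 called it with none left out (adjusted p = 0.0152). Its exons share 71 bases with AT4G27450 on the opposite strand, which averaged 479 CPM in *smxl4 smxl5* and 268 CPM in wild type (edgeR adjusted p = 0.124).

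*PORC* (AT1G03630; chromosome 1, 907523 to 909650, plus strand, 5 exons), the form induced by light, had 9.82, 11.5 and 14.1 CPM in *smxl4 smxl5*, against 19.0, 25.5 and 17.3 CPM in wild type. The groups were apart, with replicate 3 the highest of *smxl4 smxl5* and, separately, the lowest of wild type. The log2 fold change of -0.80 ± 0.18 was the lowest of the 10 genes (edgeR adjusted p = 0.0218). Without replicate 1 or 2 of either genotype the call was lost, at edgeR adjusted p from 0.0550 to 0.0659.

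*PORA* (AT5G54190; chromosome 5, 21990864 to 21992814, minus strand, 4 exons), known from dark-grown seedlings and repressed by light, was close to the detection limit. It had 10, 8 and 25 counts in *smxl4 smxl5* libraries, against 14, 11 and 15 counts in wild-type libraries, or 0.299, 0.372 and 0.693 CPM in *smxl4 smxl5* against 0.417, 0.244 and 0.303 CPM in wild type. The groups overlapped, with *smxl4 smxl5* replicate 3 the highest. The log2 fold change of 0.55 ± 0.41 did not pass (edgeR adjusted p = 0.348) and was 0.07 without *smxl4 smxl5* replicate 3. With at most 25 counts in a library, and a value that rested mainly on 1 of them, whether *PORA* differed was not decided.

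Per kilobase of exon, *PORB* made up 95.8 ± 0.096% of the summed level of the 3 POR genes in *smxl4 smxl5* and 95.03 ± 0.40% in wild type, and *PORC* 4.06 ± 0.13% in *smxl4 smxl5* and 4.89 ± 0.43% in wild type (SD, n = 3 each). The log2 ratio of *PORC* to *PORB* was lower in *smxl4 smxl5* by a difference of -0.27, and that of *PORA* to *PORB* was higher by 0.98. For each of these the groups did not overlap and the exact permutation test reached its smallest p of 0.1. Adjusted over the 6 ratios computed the p was 0.3 for both, which this number of libraries cannot bring under the threshold. The ratio of *PORA* to *PORB* also rests on at most 25 *PORA* counts in a library. The *PORA* and *PORB* transcripts align at 82.9% identity over 1055 bases, and *PORC* aligns with them at 77.1% and 77.2%, all below the 95% set for near-identical copies.

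*CAO* (AT1G44446, annotated as *CH1*; chromosome 1, 16848308 to 16851271, minus strand, 9 exons) encodes the oxygenase that turns chlorophyll *a* into chlorophyll *b*. It had 69.2, 82.2 and 76.9 CPM in *smxl4 smxl5*, against 103, 105 and 97.6 CPM in wild type. No library of *smxl4 smxl5* reached the wild-type range. The fall of -0.42 ± 0.08 on the log2 scale passed (edgeR adjusted p = 0.0126), though not once replicate 2 of wild type was left out (edgeR adjusted p = 0.0575).

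Ratios to *CHLH* within a library were set against their spread for 3 genes. The log2 ratio of *HEMA1* to *CHLH* was -0.65 ± 0.12 in *smxl4 smxl5* and -0.84 ± 0.20 in wild type, that of *CAO* was -1.90 ± 0.11 in *smxl4 smxl5* and -1.97 ± 0.08 in wild type, and that of *GUN4* was -1.88 ± 0.06 in *smxl4 smxl5* and -1.71 ± 0.12 in wild type (SD, n = 3 each). The groups overlapped for all 3 ratios, with exact permutation p of 0.3, 0.5 and 0.2 and 0.36, 0.5 and 0.3 after adjustment over the 6 ratios.

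**Figure D2:**
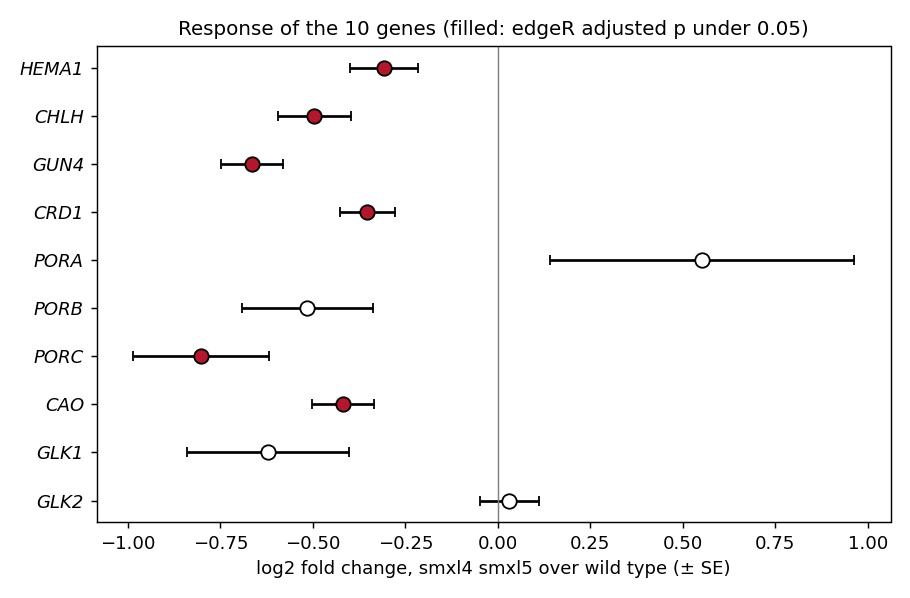
Log2 fold change of *smxl4 smxl5* over wild type for the 10 genes, in the order of the pathway with the regulators at the bottom. Points are edgeR estimates and bars their SE, and filled points passed an adjusted p of 0.05. The 6 filled points lie between -0.80 and -0.31, while *GLK2* sits at 0.03.

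Compared per kilobase of annotated exon, the levels of the 10 genes kept nearly the same order in both genotypes. In *smxl4 smxl5* the order was *CRD1* (247 ± 10.04 CPM per kilobase), *PORB* (156 ± 33.6), *HEMA1* (78.3 ± 5.77), *CHLH* (59.6 ± 4.71), *GUN4* (59.5 ± 4.85), *GLK2* (51.4 ± 4.40), *CAO* (32.8 ± 2.83), *GLK1* (13.2 ± 3.47), *PORC* (6.60 ± 1.202) and *PORA* (0.274 ± 0.13). The values of *CHLH* and *GUN4*, and of *GUN4* and *GLK2*, overlapped there. In wild type *CRD1* stood at 316 ± 2.87, *PORB* at 223 ± 34.3, *HEMA1* at 96.9 ± 7.03, *GUN4* at 94.3 ± 4.21, *CHLH* at 84.1 ± 7.17, *GLK2* at 50.3 ± 1.22, *CAO* at 43.8 ± 1.54, *GLK1* at 20.4 ± 3.94, *PORC* at 11.5 ± 2.41 and *PORA* at 0.193 ± 0.053 CPM per kilobase (SD, n = 3). Only *HEMA1* and *GUN4* overlapped as neighbours in wild type. With coding length in place of exon length, *GUN4*, *GLK2* and *CHLH* changed places in *smxl4 smxl5*.

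**Figure D3:**
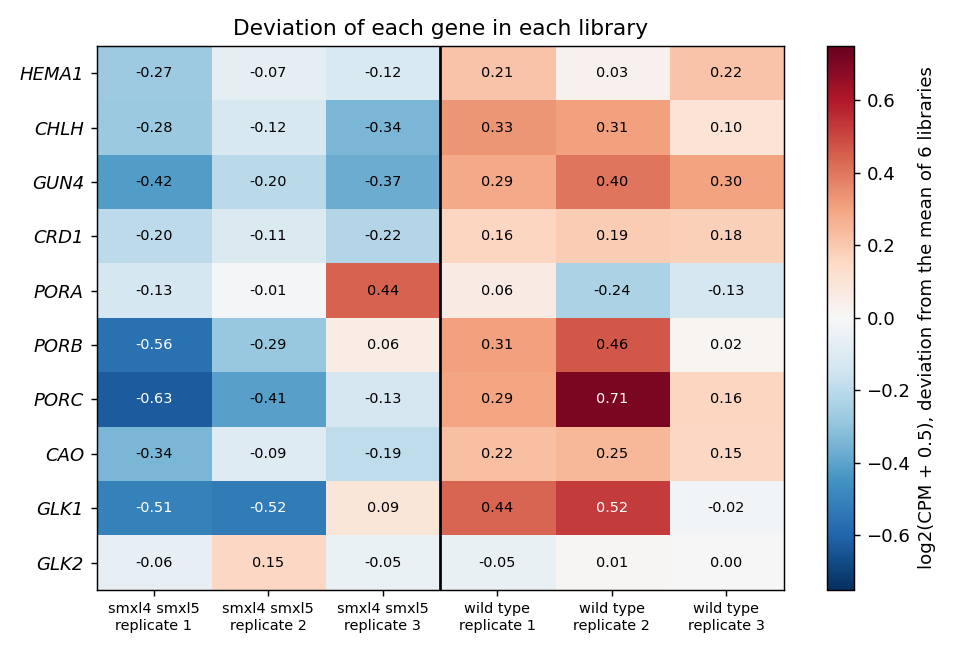
Deviation of log2(CPM + 0.5) of each gene from its own mean over the 6 libraries, with *smxl4 smxl5* libraries left of the line and wild type right of it. *PORB*, *PORC* and *GLK1* vary within the groups, at -0.51, -0.52 and 0.09 for *GLK1* in *smxl4 smxl5*, while *CRD1* stays between 0.16 and 0.19 in wild type.

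Replicate numbers were not taken as pairs between the genotypes. For *GLK1*, *PORB* and *PORC*, replicate 3 was the highest of the *smxl4 smxl5* libraries and, separately, the lowest of the wild-type libraries. The summed level of 7 epidermis markers showed the same. It was 374, 393 and 425 CPM in *smxl4 smxl5* replicates 1, 2 and 3, against 563, 615 and 409 CPM in wild type. Of these markers 2 fell and 0 rose, and none was at 0 in all libraries. That is 28.6% called lower, where 13.7% of all genes tested were. *ATML1*, a regulator of epidermal identity, had 5.45, 5.86 and 10.7 CPM in *smxl4 smxl5*, against 8.73, 10.7 and 7.77 CPM in wild type, and was called lower only without *smxl4 smxl5* replicate 3 (log2 fold change -0.68, edgeR adjusted p = 0.0211). Their part in the result was not tested.

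Of 13 genes for the early steps, shared with heme, 2 fell and 0 rose, with a median log2 fold change of -0.11. That is 15.4% called lower, close to the 13.7% of all genes tested, and no result about the list. The 2 genes were *PGR7* (AT3G21200), for the glutamyl-tRNA reductase binding protein, and *HEME1*, a uroporphyrinogen decarboxylase gene. *PGR7* was at 21.6 ± 0.808 CPM in *smxl4 smxl5* and 26.0 ± 1.88 CPM in wild type (log2 fold change -0.27 ± 0.08, edgeR adjusted p = 0.0429). *HEME1* was at 32.0 ± 1.35 CPM in *smxl4 smxl5* and 37.7 ± 0.325 CPM in wild type (-0.24 ± 0.06, edgeR adjusted p = 0.0334). *HEMB1*, an aminolevulinate dehydratase gene and the most abundant of the list, had a log2 fold change of -0.19 ± 0.08 and was not called. Without *smxl4 smxl5* replicate 2, 1 of the 13 was lower, and without any other single library 0 were.

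Of 8 other genes of the magnesium branch 1 fell, *CHLI1*, which encodes the ATPase subunit of the chelatase, at 54.3 ± 3.90 CPM in *smxl4 smxl5* and 66.7 ± 3.79 CPM in wild type (log2 fold change -0.30 ± 0.08, edgeR adjusted p = 0.0347). The D subunit gene *CHLD* had a log2 fold change of -0.03 ± 0.08, and *CHLI2*, the second gene for the I subunit, had one of -0.35 ± 0.12 (edgeR adjusted p = 0.0693). Neither was called, and the differences between the subunit genes were not tested. *CHLP*, the geranylgeranyl reductase gene that supplies the phytol tail, was the most abundant, with 447 ± 53.7 CPM in *smxl4 smxl5* and 477 ± 10.9 CPM in wild type (-0.09 ± 0.10, edgeR adjusted p = 0.523). Over the 8 genes the median was -0.15, and the 12.5% called lower were close to the 13.7% of all genes tested. The number lower was 3 without *smxl4 smxl5* replicate 3, 2 without *smxl4 smxl5* replicate 2, and 0 without any other single library.

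In the heme and bilin branch, with a median of -0.16, 1 of 5 tested genes fell, the ferrochelatase gene *FC2*, known for its role in green tissue, at 20.9 ± 0.841 CPM in *smxl4 smxl5* and 26.3 ± 2.70 CPM in wild type (log2 fold change -0.34 ± 0.09, edgeR adjusted p = 0.0324). Its paralogue *FC1* had 76.1 ± 19.8 CPM in *smxl4 smxl5* and 100.3 ± 16.7 CPM in wild type (-0.40 ± 0.21, edgeR adjusted p = 0.214). This single call makes 20% of the list, where 13.7% of all genes tested were lower, and is no result about the branch. The *FC2* call was lost without *smxl4 smxl5* replicate 1 or 2 and without wild type replicate 1 or 2.

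Among genes of chlorophyll breakdown the calls went in both directions. The chlorophyll cycle genes *NYC1*, *NOL* and *HCAR* were not called, at log2 fold changes of 0.08, -0.08 and 0.22. Nor was the breakdown gene *PPH*, at 0.002. Of the 11 tested of both kinds, 6 fell and 1 rose, and the middle value was -0.32 on the log2 scale. That is 54.5% called lower, where 13.7% of all genes tested were called lower and 11.2% higher. The riser was *CLH1*, a chlorophyllase gene known to respond to jasmonate, which had 131, 112 and 126 CPM in *smxl4 smxl5*, against 92.8, 73.4 and 80.6 CPM in wild type. Its groups did not overlap, its log2 fold change was 0.58 ± 0.11 (edgeR adjusted p = 0.00963), and the call held whichever library was left out. Its paralogue *CLH2* fell, to 3.78 ± 0.707 CPM in *smxl4 smxl5* against 5.63 ± 0.409 CPM in wild type (-0.59 ± 0.16, edgeR adjusted p = 0.0322), a call lost on leaving out any library other than *smxl4 smxl5* replicate 2 (edgeR adjusted p from 0.0576 to 0.121). *SGR2*, of the STAY-GREEN magnesium dechelatase family, fell to 0.677 ± 0.14 CPM in *smxl4 smxl5* against 1.45 ± 0.21 CPM in wild type (-1.10 ± 0.24, edgeR adjusted p = 0.0174), which did not pass once replicate 2 of wild type was left out (edgeR adjusted p = 0.0777). *SGR2* had only 27, 15 and 19 counts in *smxl4 smxl5* libraries, against 43, 76 and 68 counts in wild-type libraries, which limits its precision. The other lower calls, outside the rule for named genes, were of genes for breakdown enzymes or STAY-GREEN proteins. They were *SGR1* at -0.55 (edgeR adjusted p = 0.0156), *SGRL* at -0.43 (edgeR adjusted p = 0.0138), *ACD2* at -0.33 (edgeR adjusted p = 0.0455) and *PAO* at -0.32 (edgeR adjusted p = 0.0373). Leaving out replicate 1 of *smxl4 smxl5* or replicate 2 of wild type left 1 lower, and leaving out replicate 1 of wild type left 3. Leaving out any other single library left 4, so the 6 lower calls needed all libraries.

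Among 12 tested regulators of greening other than the GLK genes, 2 fell and 0 rose, with a median of -0.11. *HY5* and its homologue *HYH*, bZIP activators of light-regulated genes, were in that order at 4.30 ± 0.311 CPM in *smxl4 smxl5* and 5.87 ± 0.446 CPM in wild type (log2 fold change -0.45 ± 0.12, edgeR adjusted p = 0.0330) and at 0.454 ± 0.091 CPM in *smxl4 smxl5* and 0.964 ± 0.22 CPM in wild type (-1.12 ± 0.29, edgeR adjusted p = 0.0276). *GUN1*, a plastid protein of retrograde signalling and the most abundant of the list, had 122 ± 6.55 CPM in *smxl4 smxl5* and 119 ± 6.55 CPM in wild type (log2 fold change 0.03 ± 0.08). The *HY5* call was lost on leaving out any library other than *smxl4 smxl5* replicate 3 (edgeR adjusted p from 0.0648 to 0.107). That of *HYH* was lost without *smxl4 smxl5* replicate 1 or 3 and without replicate 2 or 3 of wild type (edgeR adjusted p from 0.0562 to 0.109). *HYH* had only 13, 12 and 15 counts in *smxl4 smxl5* libraries, against 24, 49 and 54 counts in wild-type libraries, which limits its precision. The 2 lower calls are 16.7% of the list, close to the 13.7% of all genes tested, and no result about the list.

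Genes for the proteins that carry the pigment and for stroma enzymes were lower throughout, where 13.7% of all genes tested were called lower. All 17 antenna genes fell, by log2 fold changes between -1.53 and -0.45 (median -0.69). *LHCB2.2*, of the trimeric antenna of photosystem II, had 709 ± 69.6 CPM in *smxl4 smxl5* and 1444 ± 33.6 CPM in wild type (-1.03 ± 0.10, edgeR adjusted p = 0.00174), *LHCB2.1* had 931 ± 101 CPM in *smxl4 smxl5* and 1833 ± 76.2 CPM in wild type (-0.98 ± 0.10), and *LHCB2.3* had 26.3 ± 12.5 CPM in *smxl4 smxl5* and 76.0 ± 3.60 CPM in wild type (-1.53 ± 0.33). *LHCB1.3* was the most abundant, at 6128 ± 721 CPM in *smxl4 smxl5* and 8360 ± 640 CPM in wild type (-0.45 ± 0.12), and shares stretches of 96.1% identity with *LHCB1.1* and *LHCB1.2*, so reads may be split among them. The *LHCB2.3* call was lost without *smxl4 smxl5* replicate 2 or wild type replicate 1 or 2, and the *LHCB1.3* call without *smxl4 smxl5* replicate 1 or any one wild type library. All 10 genes for stroma proteins also fell, with a median of -0.95. They included the carbonic anhydrase gene *CA1* at -2.49 ± 0.24, *RBCS3B* at -1.32 ± 0.12, *RBCS1B* at -1.28 ± 0.13 and *RBCS1A* at -0.76 ± 0.13, the last 3 encoding small subunits of Rubisco, of which *RBCS3B* is 95.1% identical to *RBCS2B* over 638 bases, and *CA1* has 343 transcript bases in common with AT3G01510. The difference between these medians and that of the 10 genes was not tested. Without single libraries between 14 and 17 antenna genes and between 9 and 10 stroma genes were lower.

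**Figure D4:**
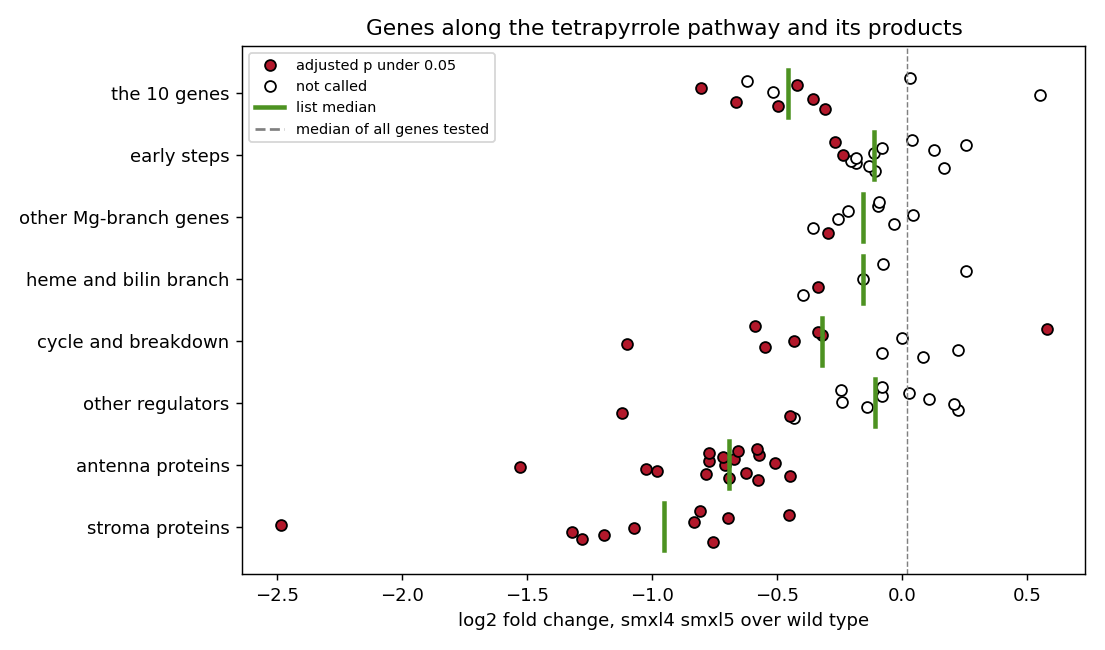
Log2 fold change of *smxl4 smxl5* over wild type for genes grouped by their place in the pathway, a point per gene, filled where edgeR's adjusted p was under 0.05. Green bars are list medians, from -0.11 for the early steps and for the other regulators to -0.95 for genes of stroma proteins. The dashed line is the median of all genes tested, 0.02.

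Of the markers of other cell types, 7 of 7 xylem genes fell, 7 of 8 phloem genes fell and 1 rose, and of 6 guard cell markers 1 fell and 1 rose. Among all genes tested 13.7% were called lower and 11.2% higher. The 16.7% of guard cell markers called lower are close to that share and no result about the list. The guard cell gene *KAT1*, a potassium channel gene singled out after its values were seen, fell to 3.88 ± 0.382 CPM in *smxl4 smxl5* against 21.2 ± 0.945 CPM in wild type (log2 fold change -2.44 ± 0.10). *FAMA*, a regulator of guard cell and myrosin cell fate singled out in the same way, rose to 15.1 ± 2.76 CPM in *smxl4 smxl5* against 5.59 ± 0.587 CPM in wild type (1.43 ± 0.16). The companion cell sucrose loader gene *SUC2* and the cellulose synthase gene *IRX3* changed by -0.82 ± 0.11 and -0.59 ± 0.13, of which *IRX3* lost its call without *smxl4 smxl5* replicate 1 and without wild type replicate 1 or 2. *GC1*, a guard cell marker, was at 0.599, 0.418 and 3.27 CPM in *smxl4 smxl5*, against 1.22, 2.08 and 1.35 CPM in wild type, and was called lower only without *smxl4 smxl5* replicate 3 (-1.58, edgeR adjusted p = 0.0185). The part of any of these tissues in the levels of the chlorophyll genes was not tested.

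The authors' deposited table gave 8 of the 10 genes an adjusted p under 0.05, *PORB* (0.0151) and *GLK1* (0.0136) among them. The fold changes there run from wild type over *smxl4 smxl5*, the opposite direction, with 0.57 for *GLK1* and -0.02 for *GLK2* in the authors' deposited table.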

How the data were processed

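The table the authors deposited holds whole-number counts for 3 libraries labelled smxl4 smxl5 and 3 labelled wild type. A second deposited table gives a log2 fold change and an adjusted p-value per gene, per the file headers. Libraries were made from poly(A) RNA with a directional kit, per the labels' protocols. FastQC 0.11.7, TopHat2 2.0.14, DESeq2 and TAIR10 are named in the submitters' processing notes. Neither the counting program nor its strand setting is named in the sources used here. Samples were grouped by the labelled stem genotype, with replicate numbers from the titles. The descriptions of all wild-type samples give replicate 1, although 3 biological replicates of each genotype are stated in the protocol.

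Counts were tested with edgeR 4.0.16 in R 4.3.3 (filterByExpr with minimum count 10 and minimum total 15, TMM, robust quasi-likelihood fits, two-sided, genotype only, Benjamini-Hochberg over all genes tested). Each SE is the absolute log2 fold change divided by the root of its F statistic. DESeq2 1.42.0, other scalings, no filter, a replicate block and leaving out each library were the alternatives. Ratios of counts used a prior count of 0.5. Names, coordinates and sequences are from RefSeq TAIR10.1, where 32835 of 33602 loci and 106 of 116 listed symbols matched, the rest being kept by locus code. The deposited files hold no coordinates. Similar transcripts were searched with BLAST 2.17.0. The deposited log2 direction was read from the counts (98.6% of tested genes had the opposite sign). Library totals of 21364628 to 49929595 counts limit the precision of low genes such as PORA. The named genes were the 10 members, the called genes with the largest changes in each list (3, or up to 5 for the early steps, magnesium branch and regulators), the most abundant gene of each, 1 defining marker per other cell type (GC1, ATML1, IRX3, SUC2) and the 3 genes closest in profile to GLK1 and to GLK2. A few others are named for their role or after their values were seen. Members and lists were chosen with earlier results of these data known.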

Additional observations from a re-analysis of the deposited data

How the results depend on the processing

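Members called lower numbered 6 with all libraries, 5 with total-count scaling or the replicate block, 8 with DESeq2, and 1 to 7 when a single library was left out. Members called higher were 0 in every fit run. The groups of 6 members did not overlap under any of the 3 scalings. Same-numbered libraries of the 2 genotypes did not deviate together, with correlations of deviations across genes of 0.031, 0.073 and -0.019, so the numbers were not taken as pairs. With the replicate number as a block, 3356 genes were called in place of 5053, and 0 early-step genes and 1 regulator were lower. Among the named genes the block removed the calls of HEMA1 (edgeR adjusted p = 0.0975), FC2 (0.0631), PGR7 (0.0604), HEME1 (0.0711), HY5 (0.0580) and LHCB1.3 (0.0692), and gained that of FC1 (log2 fold change -0.42, edgeR adjusted p = 0.0436). Leaving out single libraries gave 1902 to 5558 genes called, 0 to 1 early-step genes lower and 0 to 1 higher, 0 to 3 other magnesium-branch genes, 0 to 1 heme-branch genes, 1 to 4 breakdown genes and 0 to 2 regulators lower. With total-count scaling 1 early-step gene was lower, and with DESeq2 2 other magnesium-branch genes were. With coding length, 3 members changed place in the order of levels per kilobase. Over single libraries left out, log2 fold changes ran from -0.054 to 0.069 for GLK2, from -0.025 to 0.069 for GUN1 and from -1.58 to 0.32 for GC1. The sign turned for GLK2 (-0.054 without smxl4 smxl5 replicate 2), GUN1 (-0.0091 and -0.025 without smxl4 smxl5 replicate 1 and without wild type replicate 3) and GC1 (0.32, 0.31 and 0.20 without smxl4 smxl5 replicates 1 and 2 and without wild type replicate 2). The log2 ratios kept their direction in every setting, including a prior count of 5. The causes were not tested. Leaving out a library also leaves fewer samples for the test, and with 3 in a group changes as small as that of HEMA1 sit at its limit.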
